A study of Homo sapiens with 9 samples.

Results

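A set of 10 genes that read out ERK signalling and hold it back was followed through platinum resistance and PRMT5 inhibition in OVCAR4 cells, an established line of high-grade serous ovarian cancer. They were chosen by symbol from the 61487 genes of the count table, and they were the dual-specificity phosphatases DUSP4, DUSP5 and DUSP6, the Sprouty and SPRED inhibitors SPRY2, SPRY4, SPRED1 and SPRED2, the ETS factors ETV4 and ETV5, and PHLDA1. RNA-Seq libraries came from naive cells with DMSO, from Pt-resistant cells with DMSO, and from Pt-resistant cells with the PRMT5 inhibitor EPZ015666 at 5 uM for 5 days, with 3 libraries in each group. All cells were wild type by label, the Pt-resistant line had been derived from the naive line by continued growth in cisplatin, and the replicates were wells of 1 line in each state. The spread behind each p-value is thus that of wells and may be technical, and the resistant state is represented by 1 derived line.

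ERK, the last kinase of the RAS, RAF and MEK cascade, switches on genes through ETS and AP-1 factors and through release of the repressor CIC. Many of these targets act back on the cascade. Dual-specificity phosphatases remove the activating phosphates from ERK, and Sprouty and SPRED proteins act between receptors, RAS and RAF, so their mRNA levels are often read as a measure of pathway output.

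Total counts ranged from 14320929 to 19114811 per library, and 14630 genes were tested. Log2 levels correlated at 0.9912 to 0.9933 within groups and at 0.9274 to 0.9535 between groups, over all genes tested. Of the 10 serous and epithelial markers, PAX8 was at 107 to 155 CPM (counts scaled to a common library total) and WT1 was too low to test. Between naive and Pt-resistant cells 1 of the 9 tested rose (KRT7, log2 fold change 0.27) and 6 fell, among them EPCAM (-0.65), KRT18 (-0.71), CDH6 (-1.27) and FOLR1 (-2.53). The summed level of the list, to which KRT7 gave the most, was 3920 to 4180 CPM in naive, 3780 to 3900 in Pt-resistant and 3160 to 3200 in inhibitor-treated libraries. Of 9 fibroblast and endothelial markers, 7, 8 and 9 had counts in those groups (COL3A1 and DCN were at 0 in naive cells and COL1A2 in Pt-resistant cells), with sums of 143 to 161, 127 to 133 and 94.7 to 110 CPM that came mostly from PECAM1 and CDH5. The 6 immune markers summed to 1.42 to 2.14, 0.421 to 0.675 and 4.77 to 6.35 CPM, with CD3E and MS4A1 at 0 in Pt-resistant cells and MS4A1 at 0 with inhibitor. The part of these differences in the results on the 10 genes was not tested.

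For 6 of the 10 genes a RefSeq promoter window (GRCh38.p14) was at hand, with 9 start sites in all. The 250 bases before the start are shown for SPRY2 (the first of its 3 windows) and SPRY4, which were both lower in Pt-resistant cells, and for PHLDA1 and DUSP6, which were both higher there. Capitals mark an ETS core (CCGGAA, or TTCCGG when it lies on the other strand) or a cyclic AMP response element half-site (TGACG), both searched on both strands.
SPRY2, chr13:80341127-80341376, minus strand: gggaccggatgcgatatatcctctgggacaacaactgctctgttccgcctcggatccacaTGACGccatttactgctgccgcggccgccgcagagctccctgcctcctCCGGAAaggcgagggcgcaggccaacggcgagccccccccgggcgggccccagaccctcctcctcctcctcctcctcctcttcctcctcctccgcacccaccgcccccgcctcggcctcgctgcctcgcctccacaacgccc
SPRY4, chr5:142324248-142324497, minus strand: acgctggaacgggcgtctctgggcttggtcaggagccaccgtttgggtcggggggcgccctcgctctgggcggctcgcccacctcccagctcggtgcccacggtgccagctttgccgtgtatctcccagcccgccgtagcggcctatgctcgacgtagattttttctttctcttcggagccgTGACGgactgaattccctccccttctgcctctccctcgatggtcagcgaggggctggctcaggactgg
PHLDA1, chr12:76031777-76032026, minus strand: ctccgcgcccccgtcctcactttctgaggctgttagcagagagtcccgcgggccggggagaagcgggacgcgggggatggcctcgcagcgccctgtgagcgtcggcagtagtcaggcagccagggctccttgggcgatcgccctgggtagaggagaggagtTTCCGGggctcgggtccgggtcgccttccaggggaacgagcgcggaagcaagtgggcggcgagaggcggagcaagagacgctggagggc
DUSP6, chr12:89352502-89352751, minus strand: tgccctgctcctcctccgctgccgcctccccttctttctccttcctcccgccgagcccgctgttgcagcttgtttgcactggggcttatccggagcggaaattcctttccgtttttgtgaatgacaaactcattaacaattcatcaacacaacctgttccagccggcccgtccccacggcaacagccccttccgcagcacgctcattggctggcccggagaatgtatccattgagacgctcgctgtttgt
The ETS core began 142 bases before the start in SPRY2 and 89 before it in PHLDA1, and 17.2% of all 35116 promoter windows held it. Shares and counts of windows are for whole windows, which run on past the start, beyond the bases shown. A TGACG match lay 190 bases before the start in SPRY2, 68 before it in SPRY4 and 30 after the first start of SPRED2, so 3 of the 9 windows held one, against 24.6% of all windows. The second SPRED2 window held an AP-1 site (TGANTCA) 6 bases before the start and another 34 after it, and 7.71% of all windows held one. The 2 letter strings searched for CIC, TGAATGAA and TGAATGGA, were in 1.65% and 1.03% of all windows and in 0 of the 9 of these genes. Other forms of the CIC site were not searched, so a window without these 2 strings may still hold one. Before the start, the DUSP6 window held none of the strings searched. These matches describe the letters of the windows and do not show that a factor binds there.

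In Pt-resistant cells the 10 genes moved in both directions. A gene is called where its edgeR quasi-likelihood p, adjusted by Benjamini-Hochberg over all genes tested, was under 0.05. Compared with naive cells, 5 genes rose (DUSP4, DUSP5, DUSP6, ETV5 and PHLDA1) and 4 fell (SPRY2, SPRY4, SPRED2 and ETV4), while SPRED1 did not pass the test. DUSP4 had only 3 counts in all naive libraries and passed the filter on low counts through the groups where it is higher, so its call adds little, and without it 4 of 9 genes rose and 8 were called. The 9 called genes stand beside 59.1% of all genes tested that were called (29.8% higher and 29.4% lower), so most genes changed between these lines. In RNA from whole wells, a change in every cell and a change in the share of cells that express a gene cannot be told apart. The median log2 fold change was 0.24 over the 10 genes, with DUSP4 among them at 2.74, and 0.01 over all genes. Without DUSP4 the middle value was the 0.105 of SPRED1, which did not pass. Libraries of the 2 groups did not overlap for 8 of the 10 genes, DUSP4 among them, against 62.5% of all genes. At a change of at least 2-fold, DUSP4 and ETV5 were higher and ETV4 was lower (1 higher without DUSP4), beside 15.9% of all genes (6.73% higher and 9.13% lower).

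**Figure D1:**
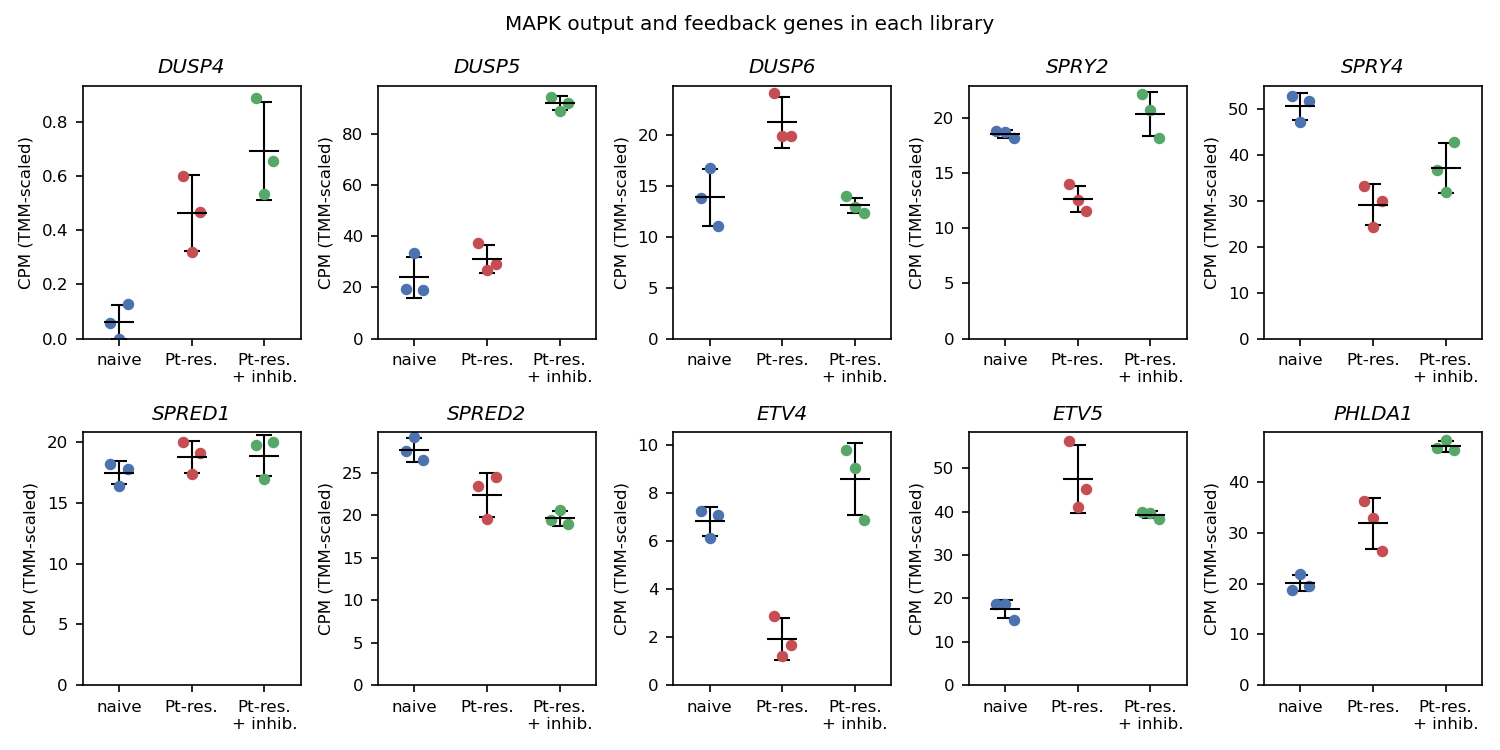
Level of each gene in the 9 libraries, in CPM from TMM-scaled totals, with a point for each library and bars for the mean and SD of 3 libraries. ETV4 lay at 1.22 to 2.89 CPM in Pt-resistant cells and at 6.12 CPM or more in the other libraries, and DUSP5 lay at 88.9 to 94.4 CPM with inhibitor and at 37.2 CPM or less elsewhere.

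PRMT5 inhibition was read against DMSO in the Pt-resistant cells. DUSP5, SPRY2, SPRY4, ETV4 and PHLDA1 rose, DUSP6 and ETV5 fell, and DUSP4, SPRED1 and SPRED2 did not pass. These 7 called genes stand beside 62.4% of all genes (31.9% higher and 30.5% lower). The median log2 fold change was 0.46, with DUSP4 among the genes, against 0.006 over all genes. Without DUSP4 the middle value was the 0.353 of SPRY4, a call that depended on single libraries. For 6 of the 10 genes the groups did not overlap, against 66.5% of all genes. DUSP5 and ETV4 changed by at least 2-fold, both upward, and 0 fell by as much, beside 17.9% of all genes (11.4% higher and 6.51% lower). Both comparisons use the same 3 Pt-resistant DMSO libraries, so a high or low Pt-resistant library moves both in opposite directions, and their values are given side by side without a test of their relation.

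The inhibitor-treated resistant cells were also set against naive cells. DUSP4, DUSP5, ETV5 and PHLDA1 were higher and SPRY4 and SPRED2 lower, while DUSP6, SPRY2, SPRED1 and ETV4 did not pass. This makes 6 of 10 genes (5 without DUSP4), beside 63.4% of all genes (32.2% higher and 31.2% lower). The groups did not overlap for 6 genes, DUSP4 among them, against 66.4%. The 4 higher genes (3 without DUSP4) were all at least 2-fold higher, and 0 were lower by as much, beside 19.8% of all genes (10.7% higher and 9.15% lower).

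**Figure D2:**
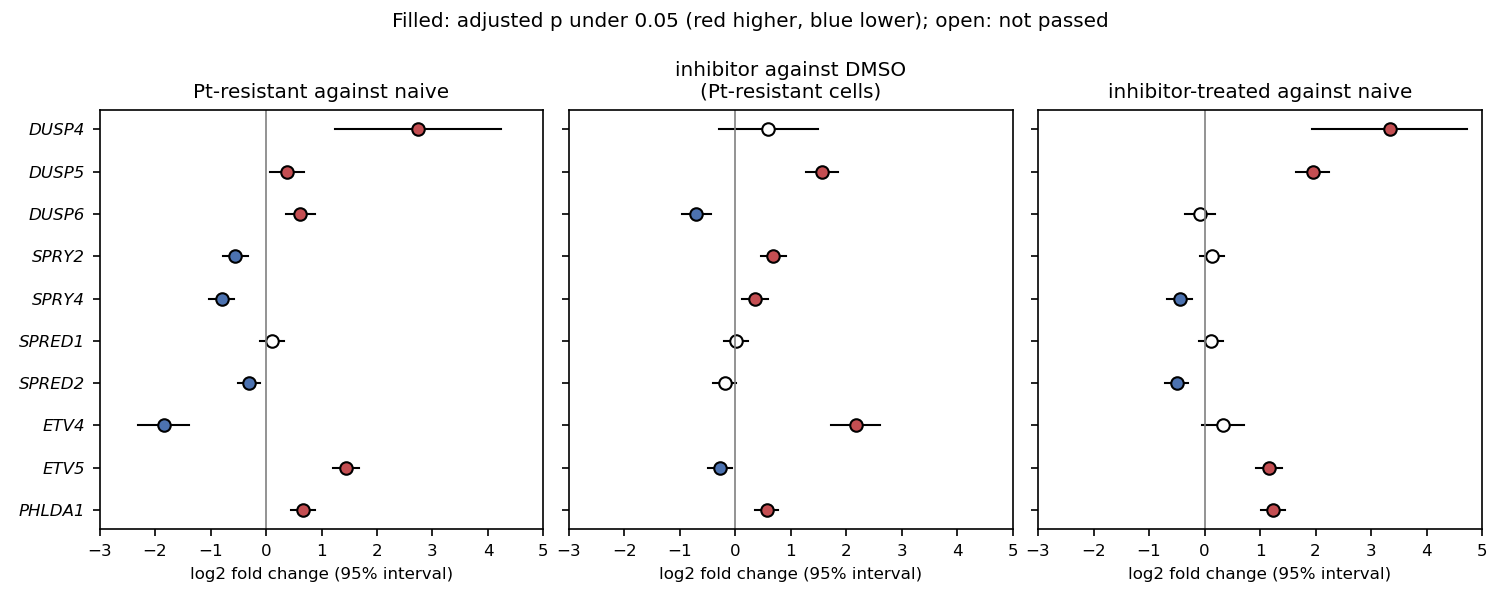
Log2 fold change of each gene with its 95% interval in the 3 comparisons, with filled points where the adjusted p was under 0.05 (red higher, blue lower). ETV4 stood at -1.84 and ETV5 at 1.44 between Pt-resistant and naive cells, and SPRED1 stood near 0 in each panel.

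Among the phosphatases, DUSP5 (ENSG00000138166.6), a nuclear phosphatase specific for ERK, had the highest mean level per length of the 10 genes in every group. In naive cells its 9.15 ± 3.1 CPM per kb of exon (mean ± SD, n = 3) was not clearly above the 7.71 ± 0.46 of SPRY4. DUSP5 was at 19.4, 33.3 and 19 CPM in the naive libraries, 37.2, 26.8 and 29.2 CPM in the Pt-resistant libraries and 94.4, 88.9 and 92.1 CPM with the inhibitor. The inhibitor libraries were all above the others, whereas naive replicate 2 lay within the Pt-resistant range. With inhibitor, DUSP5 rose by 1.57 ± 0.14 in log2 (± SE, adjusted p = 1.43e-09). Between Pt-resistant and naive cells the log2 fold change was 0.38 ± 0.15 (adjusted p = 0.0318), a call that depended on single libraries. It was 0.68 (adjusted p = 8.5e-06) without naive replicate 2, and did not pass without naive replicate 1 (0.25, adjusted p = 0.197), naive replicate 3 (0.24, adjusted p = 0.19) or Pt-resistant replicate 1 (0.23, adjusted p = 0.199). It did not pass with DESeq2 (0.37, adjusted p = 0.194) or when only these 2 groups were fitted (0.37, adjusted p = 0.067) either.

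DUSP6 (ENSG00000139318.8), the cytoplasmic phosphatase specific for ERK, moved the other way under the inhibitor. It was at 13.8, 16.8 and 11.1 CPM in the naive libraries, at 24.2, 19.9 and 19.9 CPM in the Pt-resistant libraries and at 14, 12.9 and 12.4 CPM with the inhibitor. Every Pt-resistant library was above every library of the other groups, and the naive and inhibitor-treated ranges overlapped. The log2 fold change was 0.62 ± 0.13 against naive (adjusted p = 0.00018) and -0.70 ± 0.13 with inhibitor (adjusted p = 4.27e-05). Between inhibitor-treated and naive cells it was -0.08 with a 95% interval from -0.35 to 0.20. In GENCODE 29, 40.5% of DUSP6 exon bases are shared with the opposite-strand gene AC024909.2, which had 20 counts over the 9 libraries, and the sources used here do not state whether counting used the strand.

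DUSP4 (ENSG00000120875.9), a nuclear phosphatase that acts on ERK and other MAP kinases, was near the limit of detection. It had 1, 0 and 2 counts in naive, 10, 6 and 9 in Pt-resistant and 15, 8 and 11 in inhibitor-treated libraries, and it passed the filter through libraries of the 2 higher groups. No naive library reached the level of a library of the other groups, while the Pt-resistant and inhibitor-treated ranges overlapped. The ratio of summed, depth-scaled counts was 7.32 for Pt-resistant over naive (95% interval 2.23 to 37.9, counting error only), 1.53 for inhibitor over DMSO (0.885 to 2.67) and 11.2 for inhibitor-treated over naive (3.52 to 56.9). Adjusted p-values were 0.00233, 0.236 and 0.00015. The fitted log2 value for Pt-resistant against naive was 2.74 and ranged from 2.26 without naive replicate 2 to 3.60 without naive replicate 3, and that for inhibitor-treated against naive from 2.86 to 4.19 without the same libraries.

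Both Sprouty genes, whose products inhibit receptor tyrosine kinase signalling to RAS and RAF, were lower in Pt-resistant cells and higher again with inhibitor. SPRY2 (ENSG00000136158.12) was at 18.9, 18.8 and 18.2 CPM in the naive libraries, at 14, 12.6 and 11.6 CPM in the Pt-resistant libraries and at 22.2, 20.8 and 18.2 CPM with the inhibitor. The Pt-resistant libraries were below all others, and the naive libraries lay at the lower end of the inhibitor-treated range. Its log2 fold change was -0.55 ± 0.11 against naive (adjusted p = 0.000128) and 0.68 ± 0.11 with inhibitor (adjusted p = 8.07e-06), and inhibitor-treated against naive cells gave 0.13 ± 0.11 (adjusted p = 0.294).

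SPRY4 (ENSG00000187678.10) was at 52.8, 47.2 and 51.8 CPM in the naive libraries, at 33.2, 24.3 and 30 CPM in the Pt-resistant libraries and at 36.7, 32 and 42.8 CPM with the inhibitor. All naive libraries were above all others, and the 2 Pt-resistant groups overlapped. From naive to Pt-resistant cells SPRY4 changed by -0.80 ± 0.11 in log2 (adjusted p = 1.23e-06). With inhibitor it gained 0.35 ± 0.11 (adjusted p = 0.00813), and it no longer passed once Pt-resistant replicate 2 was left out (0.24, adjusted p = 0.0753) or inhibitor replicate 3 was (0.24, adjusted p = 0.0877). The inhibitor-treated cells stayed below naive cells at -0.44 ± 0.11 (adjusted p = 0.00103).

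The SPRED proteins bring neurofibromin to RAS at the membrane. SPRED1 (ENSG00000166068.13) was at 18.2, 16.4 and 17.8 CPM in the naive libraries, at 20, 17.4 and 19.1 CPM in the Pt-resistant libraries and at 19.8, 17 and 20 CPM with the inhibitor, with all 3 groups overlapping. Its log2 fold changes were 0.11 (95% interval -0.11 to 0.32) against naive, 0.01 (-0.20 to 0.22) with inhibitor and 0.12 ± 0.10 between inhibitor-treated and naive cells, with adjusted p-values of 0.398, 0.94 and 0.347. SPRED2 (ENSG00000198369.10) was at 27.5, 29.2 and 26.5 CPM in the naive libraries, at 23.4, 19.5 and 24.5 CPM in the Pt-resistant libraries and at 19.4, 20.6 and 19 CPM with the inhibitor. Naive cells were highest, without overlap with either other group. SPRED2 fell by 0.31 between naive and Pt-resistant cells (SE 0.10, adjusted p = 0.0103), and it no longer passed once Pt-resistant replicate 2 was left out (-0.22, adjusted p = 0.0825). With inhibitor the value was -0.19 ± 0.10 (adjusted p = 0.102), which passed without that same library (-0.29, adjusted p = 0.0232). Inhibitor-treated cells were lower than naive cells by a log2 difference of -0.50 ± 0.10 (adjusted p = 0.000149).

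The ETS factors ETV4 and ETV5 belong to the PEA3 subfamily and are transcribed in response to ERK. ETV4 (ENSG00000175832.13) was at 7.22, 6.12 and 7.06 CPM in the naive libraries, at 2.89, 1.22 and 1.66 CPM in the Pt-resistant libraries and at 9.77, 9.02 and 6.85 CPM with the inhibitor. Pt-resistant libraries were the lowest by a wide gap, and the naive and inhibitor-treated ranges overlapped. ETV4 had a log2 fold change of -1.84 ± 0.22 against naive (adjusted p = 1.87e-07) and of 2.17 ± 0.22 with inhibitor (adjusted p = 8.12e-09). These values reached -2.24 and 2.56 without Pt-resistant replicate 1, the highest of its group. They were -1.605 and 1.925 without Pt-resistant replicate 2, the lowest of its group. Inhibitor-treated against naive cells gave 0.33 (95% interval -0.05 to 0.70, adjusted p = 0.124), and 0.47 (adjusted p = 0.0441) without inhibitor replicate 3.

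ETV5 (ENSG00000244405.8) took the opposite course. It was at 18.6, 18.7 and 15.1 CPM in the naive libraries, at 56.2, 41 and 45.3 CPM in the Pt-resistant libraries and at 39.8, 39.7 and 38.2 CPM with the inhibitor. All naive libraries were below all others, and the inhibitor-treated libraries were just below the lowest Pt-resistant one. Against naive cells ETV5 rose by 1.44 ± 0.11 in log2 (adjusted p = 1.03e-10). It fell by 0.27 with inhibitor (SE 0.10, adjusted p = 0.0246), and it no longer passed once Pt-resistant replicate 1 was left out (-0.13, adjusted p = 0.257) or inhibitor replicate 3 was (-0.25, adjusted p = 0.0781). The inhibitor-treated cells remained 1.17 ± 0.11 above naive cells in log2 (adjusted p = 3.22e-09). ETV4 shares 1.89% of its exon bases with the opposite-strand gene DHX8, which had 9680 counts over all libraries against 328, 103 and 415 for ETV4 in the 3 groups, and whether any of them entered the ETV4 counts was not tested. ETV5 shares 2.83% with DGKG, which had 1 count over all libraries.

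PHLDA1 (ENSG00000139289.14), a pleckstrin homology-like protein induced by growth factors, was higher in each step. It was at 18.7, 21.9 and 19.6 CPM in the naive libraries, at 36.3, 33 and 26.5 CPM in the Pt-resistant libraries and at 46.7, 48.3 and 46.3 CPM with the inhibitor, with no overlap between any groups. The log2 fold change was 0.67 ± 0.11 against naive (adjusted p = 8.61e-06), 0.56 ± 0.10 with inhibitor (adjusted p = 3.44e-05) and 1.23 ± 0.11 between inhibitor-treated and naive cells (adjusted p = 3.9e-10). Opposite-strand genes share 16.5% of its exon bases and had 8 and 6 counts over all libraries.

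Ratios between members of 1 family within a library do not depend on how libraries are scaled. These pairs were chosen after the values had been seen and are given without a test. ETV5 over ETV4 was 2.14 to 3.06 in naive, 19.5 to 33.5 in Pt-resistant and 4.08 to 5.58 in inhibitor-treated libraries, with no overlap of the groups. DUSP5 over DUSP6 was 1.41 to 1.99, 1.35 to 1.54 and 6.76 to 7.4, so the naive and Pt-resistant ranges overlapped and the inhibitor range stood apart. SPRY4 over SPRY2 was 2.5 to 2.84, 1.94 to 2.59 and 1.54 to 2.35, with overlap between neighbouring groups. SPRED2 over SPRED1 was 1.49 to 1.79 in naive cells, above 1.12 to 1.28 in Pt-resistant and 0.952 to 1.21 in inhibitor-treated cells. As ratios of CPM they are not corrected for gene length and bear on differences between groups.

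**Figure D3:**
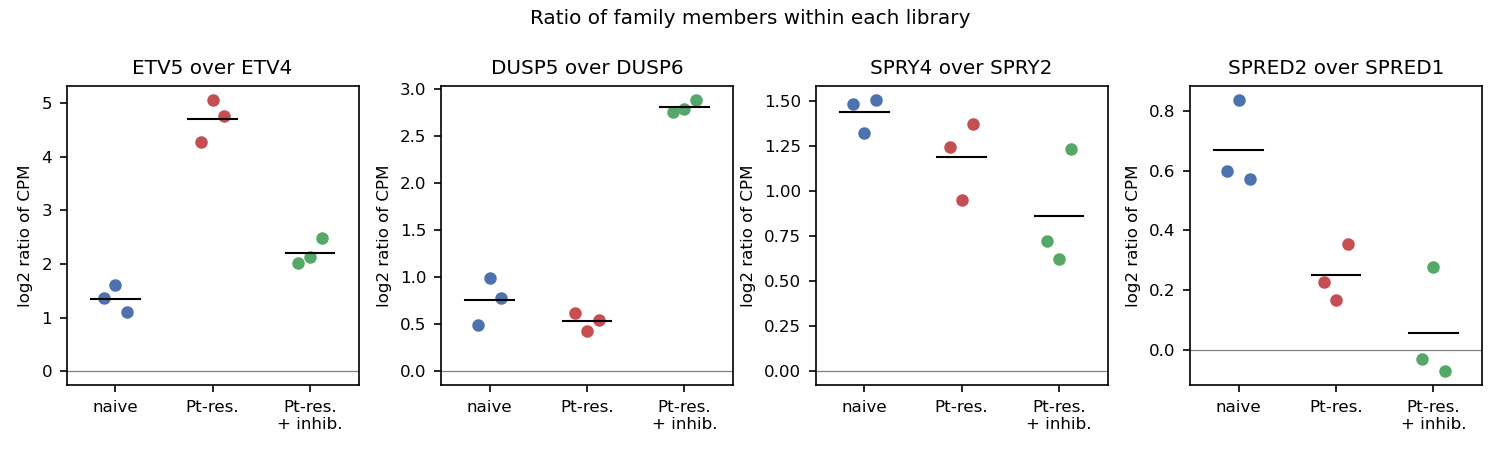
Log2 ratio of CPM between 2 genes of a family in each of the 9 libraries, with a line at the mean of 3. For ETV5 over ETV4 the mean was 1.36 in naive, 4.71 in Pt-resistant and 2.22 in inhibitor-treated cells, and for DUSP5 over DUSP6 it was 0.75, 0.53 and 2.81.

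Levels were compared between genes as CPM per kb of exon (mean ± SD, n = 3), with GENCODE 29 lengths, and neighbours are called apart here where their gap exceeded the larger of their SDs. In naive cells DUSP5 (9.15 ± 3.1) and SPRY4 (7.71 ± 0.46) were not apart. SPRY2 (6.13 ± 0.12) and SPRED2 (5.38 ± 0.26) followed, then ETV5 (3.01 ± 0.35), DUSP6 (3 ± 0.61) and PHLDA1 (2.49 ± 0.2). DUSP6 was not apart from ETV5 or from PHLDA1, while ETV5 and PHLDA1 were apart. SPRED1 (2.11 ± 0.12), ETV4 (1.88 ± 0.16) and DUSP4 (0.0084 ± 0.0087) were lowest. In Pt-resistant cells DUSP5 (11.9 ± 2.1) and ETV5 (8.19 ± 1.3) led, and DUSP6, SPRY4, SPRED2, SPRY2 and PHLDA1 lay between 4.61 and 3.96 with no neighbours apart. SPRED1 (2.28 ± 0.16), ETV4 (0.533 ± 0.24) and DUSP4 (0.0638 ± 0.019) came last. With inhibitor DUSP5 (35.1 ± 1.1) was far above ETV5 (6.77 ± 0.15) and SPRY2 (6.71 ± 0.67), which were not apart. PHLDA1 (5.84 ± 0.13) and SPRY4 (5.66 ± 0.82) were not apart either, and were followed by SPRED2 (3.81 ± 0.16), DUSP6 (2.83 ± 0.17), ETV4 (2.37 ± 0.42), SPRED1 (2.29 ± 0.2) and DUSP4 (0.0954 ± 0.025), of which ETV4 and SPRED1 were not apart.

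The 10 genes did not move as a block. Of the 45 correlations between their log2 levels over the 9 libraries, 24 were above 0 and 21 below it, from -0.90 for SPRED2 with PHLDA1 to 0.97 for SPRY2 with ETV4. DUSP5 with PHLDA1 gave 0.91 and ETV4 with ETV5 -0.45. The libraries fall into 3 groups, so these values mostly restate the differences between groups and are given as a description. By the range of its group means on the log2 scale DUSP4 had the widest range at 2.21 and ETV4 was next at 2.15, a gap that the 0 to 15 counts per library of DUSP4 cannot resolve. The genes whose log2 levels correlated most with this near-floor profile, among 11128 genes, were SP100 (r = 0.981, with means of 8.57, 17.7 and 21.1 CPM in the 3 groups), HOXA-AS2 (0.979) and CLCF1 (0.974).

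Within groups, single libraries stood high or low across the 10 genes, a pattern noticed after the values had been seen. Pt-resistant replicate 1 was the highest of its group for 9 of the 10 genes, all but SPRED2, and for 37% of all genes tested. Pt-resistant replicate 2 was the lowest for 8 of them and for 33.8% of all genes. In naive cells replicate 2 was the highest for 5 of the 10 genes, and for 10 of 16 other ERK output genes, against 35.6% of all genes. The genes are not independent of each other, and this pattern was not tested. Because the Pt-resistant libraries enter both comparisons, the values without each of them are those given beside DUSP5, SPRY4, SPRED2, ETV4 and ETV5 above.

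**Figure D4:**
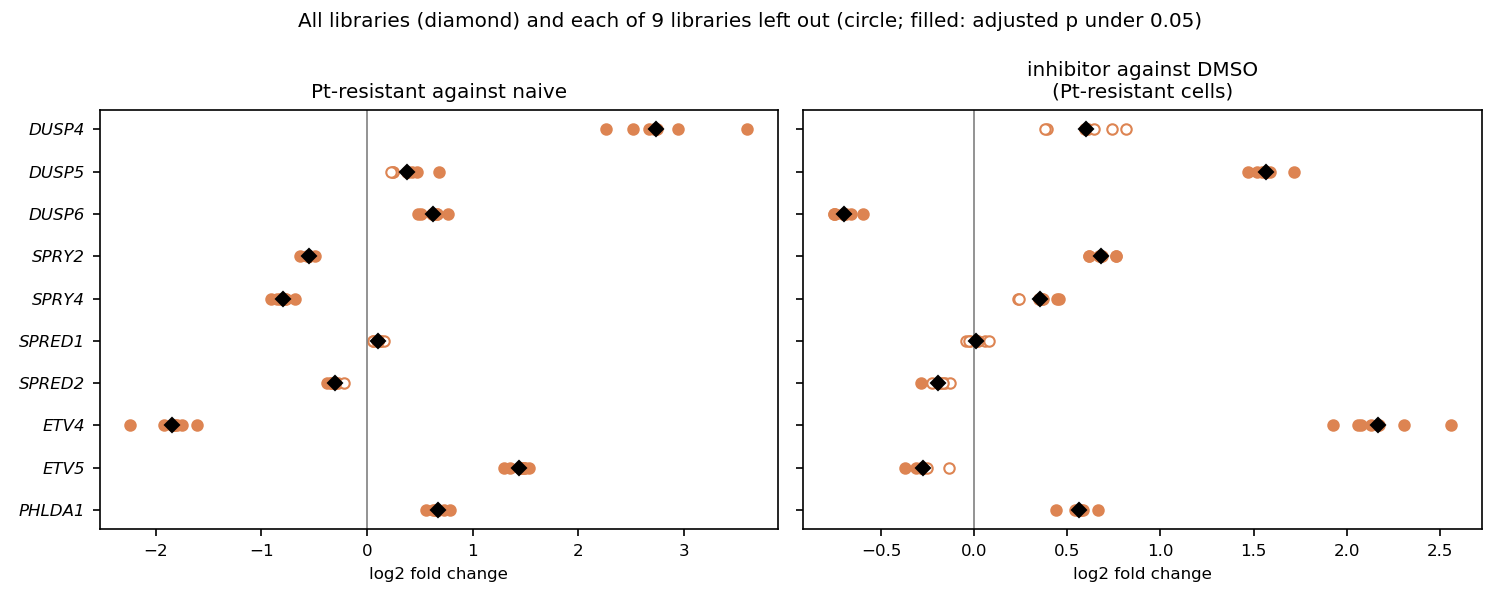
Log2 fold change of each gene with all 9 libraries (diamond) and with each library left out in turn (circle, filled where the adjusted p was under 0.05), for Pt-resistant against naive cells (left) and inhibitor against DMSO (right). Calls lost for DUSP5 and SPRED2 on the left and for SPRY4 and ETV5 on the right show as open circles. Genes that did not pass with all libraries, such as SPRED1, have open circles too.

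The wider pathway was read from lists of related genes. Counts of called genes in each list stand beside 29.8% of all genes higher and 29.4% lower in Pt-resistant cells. With inhibitor the shares of all genes were 31.9% higher and 30.5% lower. Of 11 other dual-specificity phosphatases, in Pt-resistant cells 3 were higher and 2 lower (5 rose without naive replicate 2), and 4 rose and 5 fell with inhibitor. DUSP9, another phosphatase of ERK, was at 7.15 ± 0.62, 1.43 ± 0.5 and 7.64 ± 0.2 CPM in naive, Pt-resistant and inhibitor-treated cells (mean ± SD, n = 3), with log2 fold changes of -2.34 ± 0.20 (adjusted p = 8.04e-10) and 2.43 ± 0.20 (adjusted p = 3.18e-10). DUSP10, which prefers p38 and JNK, rose by 1.70 ± 0.17 in Pt-resistant cells (adjusted p = 5.36e-09). DUSP3 fell by 1.47 with inhibitor (SE 0.08, adjusted p = 2.99e-13).

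Of 13 other ERK brakes and adaptors tested, 8 were lower and 2 higher in Pt-resistant cells, whereas with inhibitor 8 rose and 3 fell. The medians of their log2 fold changes were -0.33 and 0.38, against 0.01 and 0.006 over all genes. Both comparisons use the same Pt-resistant DMSO libraries, and the relation of their values was not tested. SPRY3 was too low to test. IL17RD, a membrane antagonist of FGF signalling, went from 16.4 ± 1.9 CPM in naive to 3.05 ± 0.23 in Pt-resistant cells and 5.66 ± 0.35 with inhibitor (adjusted p = 1.13e-12 and 4.47e-05). SPRY1, the Sprouty gene beside SPRY2 and SPRY4, fell by 0.87 in Pt-resistant cells (SE 0.10, adjusted p = 1.02e-07), and with inhibitor its value was 0.11 ± 0.11 (adjusted p = 0.389). SH2B3, an adaptor that dampens cytokine receptors, rose by 1.70 ± 0.12 with inhibitor (adjusted p = 2.74e-11).

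Among 16 other ERK output genes tested, 6 rose and 6 fell in each of the 2 comparisons, so their directions were mixed as well. EPHA4 was too low to test. UPP1 rose by 2.13 ± 0.09 in Pt-resistant cells (adjusted p = 5.01e-15) and fell by 1.69 with inhibitor (SE 0.09, adjusted p = 2.59e-13). FOSL1, an AP-1 subunit, rose by 1.68 ± 0.20 in Pt-resistant cells (adjusted p = 1.39e-07), while HMGA2, a chromatin protein, fell by 2.06 (SE 0.08, adjusted p = 8.69e-16). PLAUR, the urokinase receptor, went from 9.47 ± 0.51 to 59.3 ± 4.9 CPM with inhibitor (log2 fold change 2.64 ± 0.11, adjusted p = 6.04e-15). FOS, an immediate early AP-1 gene, fell by 0.99 with inhibitor (SE 0.11, adjusted p = 5.88e-08).

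The kinases and adaptors of the cascade were read in the same way. Of 18 genes of the RAS, RAF, MEK and ERK core, 5 were lower and 3 higher in Pt-resistant cells. With inhibitor 3 rose (5 with DESeq2) and 4 fell. Thus 44.4% and 38.9% were called, against 59.1% and 62.4% of all genes. The medians of their absolute log2 fold changes were 0.19 and 0.17, against 0.65 and 0.58 for the 10 genes and 0.39 and 0.43 for all genes. MAPK3, which encodes ERK1, fell by 0.57 in Pt-resistant cells (SE 0.08, adjusted p = 1.17e-06), and MAP2K1, which encodes MEK1, rose by 0.44 ± 0.09 with inhibitor (adjusted p = 0.000149). Among 6 ETS and CIC repressors, 1 rose and 2 fell in each comparison, and with inhibitor 1 fell without Pt-resistant replicate 1 or 2 or without inhibitor replicate 1 or 3. CIC, which represses ETV4 and ETV5, went from 115 ± 2.7 CPM in naive to 91.3 ± 2.5 CPM in Pt-resistant cells (log2 fold change -0.33 ± 0.09, adjusted p = 0.00291), and its value with inhibitor was -0.03 ± 0.09 (adjusted p = 0.802).

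Upstream, most of the ligands tested were higher and most of the receptors lower in Pt-resistant cells, beside 29.8% of all genes higher and 29.4% lower. Of 6 EGF family ligands tested, 5 rose and 1 fell, and EREG and EPGN were too low to test. AREG, a ligand of EGFR, went from 2.3 ± 0.3 to 13.4 ± 2.7 CPM (log2 fold change 2.53 ± 0.17, adjusted p = 1.28e-11). Of 13 receptor tyrosine kinases, 1 rose and 10 fell, with a median log2 fold change of -0.89, against 0.01 over all genes. AXL was the receptor that rose, and a second passed without naive replicate 2, Pt-resistant replicate 2 or inhibitor replicates 1 or 2. FGFR3 fell by 2.57 (SE 0.12, adjusted p = 2.74e-14). With inhibitor 3 ligands rose and 1 fell, and 7 receptors rose and 1 fell, with AXL going from 72.7 ± 7.3 to 231 ± 7.7 CPM (log2 fold change 1.67 ± 0.08, adjusted p = 4.3e-14).

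Kinases further out showed no common direction. Of 11 p38 and JNK kinases, 4 were higher and 4 lower in Pt-resistant cells, while among the same genes 4 rose and 2 fell with inhibitor (1 without inhibitor replicate 3). MAP2K6, which activates p38, had means of 24.1 ± 4, 77.7 ± 8.1 and 22.7 ± 1.3 CPM in the 3 groups (adjusted p = 2.64e-12 and 1.2e-12). MAPK12 rose by 2.248 ± 0.155 in Pt-resistant cells (adjusted p = 1.58e-11), and its value with inhibitor was -0.107 ± 0.126 (adjusted p = 0.472). It shares 29.3% of its exon bases with HDAC10 on the same strand. Of 7 kinases downstream of ERK, 3 were lower and 1 higher in Pt-resistant cells, and 1 rose (2 without inhibitor replicate 1) and 2 fell with inhibitor. MKNK2 rose by 1.20 ± 0.08 in Pt-resistant cells (adjusted p = 1.13e-11).

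**Figure D5:**
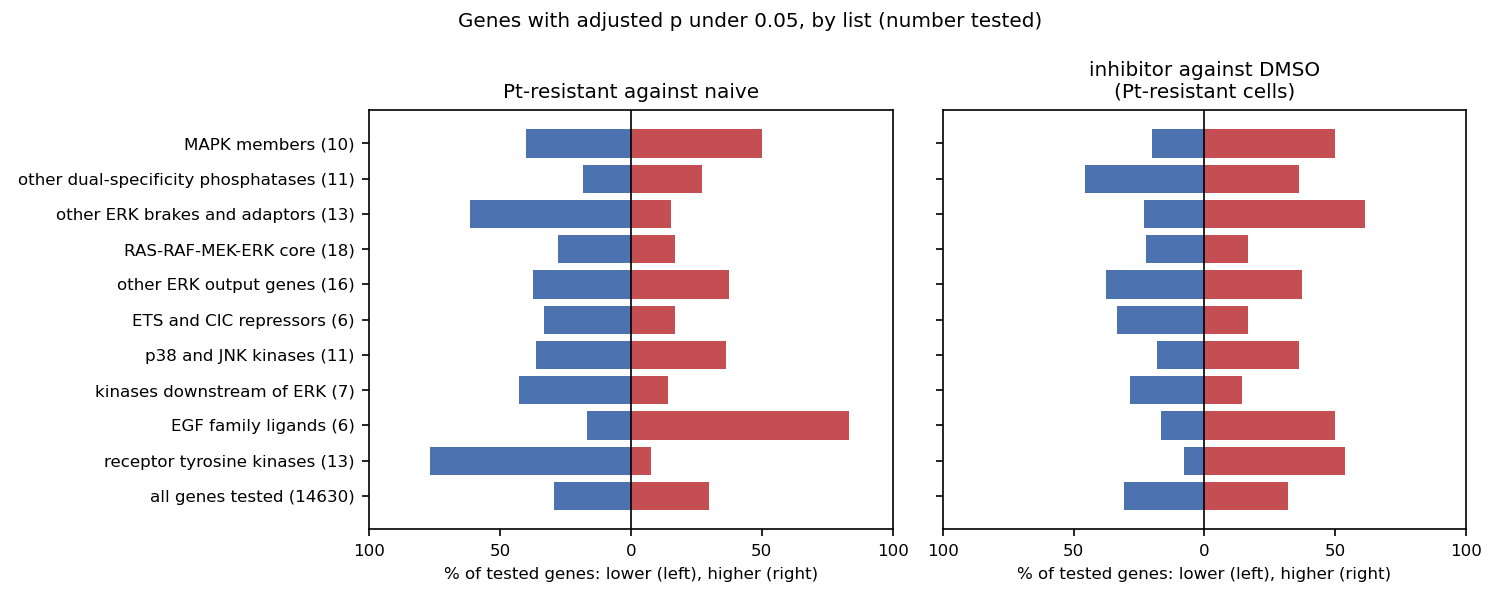
Share of the tested genes of each list that passed the test, lower to the left in blue and higher to the right in red, in percent, with the number tested in brackets and all 14630 genes at the bottom. Of the receptor tyrosine kinases 10 of 13 were lower in Pt-resistant cells, and of the other ERK brakes 8 of 13 were higher with inhibitor.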

How the data were processed

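RNA-Seq covered 9 libraries in 3 groups of 3. The authors ran FastQC on the reads, used STAR for alignment and for counting per gene, and deposited the raw counts, which had not been normalised. The sources used here do not give the build, annotation or strand column of the counts, and the only coordinates printed are those of RefSeq promoter windows (GRCh38.p14). Such counting drops reads with several alignments or over several genes.

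Ensembl IDs were matched to a symbol table (61369 of 61487). Counts were fitted in R 4.3.3 with edgeR 4.0.16 (filterByExpr with minimum count 10, TMM scaling, 1 quasi-likelihood fit over all 9 libraries, no covariates), which kept 14630 genes with 99.88% of the counts. P-values were adjusted by Benjamini-Hochberg over these genes, with a threshold of 0.05. The SE of log2 fold changes is their size over the root of F. CPM use TMM-scaled totals. Depth was 14320929 to 19114811 counts, 95% intervals of count ratios cover counting error only, those of log2 fold changes come from the fit and include the spread between libraries, and the biological coefficient of variation was 7.66%. The fit was also run on simulated counts with few changed genes, all of them well counted, and the same spread for every gene. Most genes were called in the real data and DUSP4 had few counts, so that run does not bear on such a setting. The study used DESeq2, and DESeq2 1.42.0 and limma 3.58.1 (voom) were among the 18 alternatives. Exon lengths and overlaps are from GENCODE 29.

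The members and gene lists were chosen with earlier results of these data known, and the motifs, family ratios and library counts after the values were seen. All 10 members are named. From the other pathway lists a gene could be named if it passed and was among the 3 with the largest absolute log2 fold change of its list. Only some of these genes are named, so those named do not represent their lists. Genes too low to test and the 3 genes closest in pattern to the member with the widest range are named as well.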

Additional observations from a re-analysis of the deposited data

How the results depend on the processing

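Under 18 alternatives (scaling, filter, tool, samples fitted, fold threshold, replicate block, each library left out) the fold changes of the 10 genes gave 535 values, of which 505 kept direction and side of the threshold, 23 no longer passed, 2 newly passed and 5 changed sign. The 5 were values that passed neither way, namely SPRED1 with inhibitor against DMSO (0.01), which was -0.024 with library size alone and ranged from -0.046 to 0.079 as libraries were left out (below 0 without Pt-resistant replicate 2, inhibitor replicate 1 or inhibitor replicate 3), and DUSP6 in inhibitor-treated against naive cells (-0.08), which ranged from -0.22 to 0.066 (above 0 without naive replicate 2). In Pt-resistant against naive cells, 3 genes were higher when only these groups were fitted, where DUSP4 was too low to test and DUSP5 did not pass. With a threshold of at least 2-fold, 3 genes were called there (2 higher and 1 lower). With inhibitor against DMSO the 2-fold threshold left 2 higher and 0 lower, 2 in all, and in inhibitor-treated against naive cells 0 lower. Leaving out a library gave 1 to 3 lower genes with inhibitor, 1 without Pt-resistant replicate 1 or inhibitor replicate 3 and 3 without Pt-resistant replicate 2. At 2-fold 2320, 2625 and 2903 of all genes were called in the 3 comparisons, against 8651, 9136 and 9276. DUSP4 was not tested with a filter of 1 CPM in 3 libraries. Other scalings moved the median of all genes by -0.06 to 0.005.

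With the replicate number as a block, 9, 7 and 6 of the 10 genes were called, as without the block. Whether the numbers pair the samples was not tested. Deviations of same-numbered libraries correlated at -0.076 to 0.1 in 9 pairs, and 7 of 9 libraries correlated best with a library of their own number. At these depths DUSP4, with 0 to 15 counts per library, is the member whose size of change is least certain.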
